A study of Mus musculus with 20 samples.

Results

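Mesonephric mesenchyme (MM) at E10.5 is described here as the 9044 cells that the deposited annotation names mesonephric mesenchyme and dates to E10.5. They were 9044 of 14962 cells at that stage, of 17516 cells of MM at all stages, and of 94705 cells in the series, an atlas of the developing mouse gonad. The cells came from 4 libraries, 2 from XX and 2 from XY embryos, and were set beside 2335 cells of coelomic epithelium (CE) and 2695 cells of mesonephric tubules (MT) from the same libraries, and beside 8351 cells of MM from the 4 libraries at E11.5. Every embryo came from CD-1 females crossed with males heterozygous for the Tg(Nr5a1-GFP) transgene, so all groups carried the strain background CD1 and no group lacked the reporter. At E10.5 and E11.5 the urogenital ridges, which at these stages hold the adreno-gonadal primordium with its mesonephros, were taken from embryos of unknown litter that had shown green fluorescence and had been sexed by PCR. The cells were not sorted, and the transcripts were counted as unique molecular identifiers (UMIs) from the 3′ end of each transcript. Nothing in the labels says that replicates came from separate litters, although the methods call the replicates biological and independent, so a p-value below measures the spread between libraries, part of which may be technical.

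The mesonephros is the transient embryonic kidney that lies alongside the gonad, and its mesenchyme surrounds the nephric duct and the mesonephric tubules. The mesenchyme derives from intermediate mesoderm and later contributes stroma, smooth muscle and vessel-associated cells to the reproductive tract and to the border of the gonad. The coelomic epithelium covers the ridge, and from it come the somatic cells of the gonad, which switch on Nr5a1, the nuclear receptor whose regulatory sequences drive the GFP reporter. Osr1, a zinc finger factor of the intermediate mesoderm, Pdgfra, a receptor for platelet-derived growth factor, Wt1, a zinc finger factor needed for kidney and gonad, and Tcf21, a helix-loop-helix factor of visceral mesenchyme, were used to check the name of these cells.

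The libraries are given below always in the order XX replicate 1, XX replicate 2, XY replicate 1, XY replicate 2. They held 2558, 4566, 2752 and 5086 cells at E10.5. MM was the most frequent type in each, with 1649, 2947, 1403 and 3045 cells, or 64.5% (95% exact binomial interval 62.6 to 66.3), 64.5% (63.1 to 65.9), 51.0% (49.1 to 52.9) and 59.9% (58.5 to 61.2). The intervals cover counting error only. The share of CE ran from 5.47% in XX replicate 1 to 28.4% in XY replicate 1, so the library with the smallest share of MM had the largest share of CE. A cell of MM had a median of 25857, 23729, 23149 and 23363 UMIs at E10.5, against 14732 to 17799 at E11.5. Pairs of E10.5 libraries had 13 to 37 cell barcodes in common, at most 1.05% of the smaller library. XX and XY libraries of the same replicate number shared a date in the labels and no date was shared between stages, so date and stage cannot be told apart. The library labelled E11.5 XY replicate 2 held Xist, the RNA that coats the silenced X chromosome, at 60.2 CPM (UMIs of a gene scaled to one common total, the usual unit of relative abundance), against 1.43 in the other E11.5 XY library, and Ddx3y, a Y-linked helicase gene, was at 2.39 CPM in E11.5 XX replicate 2. The stage counts over all genes are also given without these libraries.

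The 4 markers only partly set the named cells apart from their neighbours. On the scale of CPM of the library total, Osr1 (chr12:9570116-9581500, GRCm38) was at 49.4, 39.5, 43.5 and 39.6 in MM and at 22.8, 12.3, 19.6 and 19.0 in CE. The MM values lay above all those of CE, whereas MT, at 43.6, 39.5, 15.4 and 40.0, overlapped them. Pdgfra (chr5:75152292-75198215) was at 73.5, 81.6, 63.6 and 85.3 in MM, above CE (24.4 to 44.6) and above MT (3.15 to 7.77), and of the 4 it alone was higher in MM than in both other types in every library. Wt1 (chr2:105126529-105173616) was at 65.3, 109, 97.2 and 106 in MM, and CE was higher in every library, at 138, 207, 216 and 198. Tcf21 (chr10:22817281-22820174) was at 26.5, 42.0, 33.7 and 53.5 in MM, below CE in 3 of 4 libraries (51.3, 65.0, 28.8 and 79.3) and above MT in all (5.69 to 11.7). Summed over the 4 markers, MM held 215 to 284 CPM, CE 254 to 341 and MT 90.13 to 127, and no other type at E10.5 held more than 30.7. The name therefore rests in the data mainly on Pdgfra, with Osr1 setting MM apart from CE only. Wt1 and Tcf21 were at least as high in CE in most libraries.

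Single cells carried the markers unevenly. With each cell thinned to 10000 UMIs, which left out 8 of the 9044 cells, Wt1 was seen in 51.0%, Pdgfra in 49.5%, Tcf21 in 26.8% and Osr1 in 26.7% of MM cells. The same shares in blood cells, which should lack these genes, were 7.14%, 1.79%, 1.79% and 0%, over 56 cells whose depth was made equal in the same way. All 4 markers were seen together in 1.84% of thinned MM cells and none in 14.3%. Without thinning, 388 cells (4.29%) had no UMI of any of the 4, at a median of 20503.5 UMIs a cell against 24118 in the others.

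Markers of other cell types were summed in the same way. Their part in the levels at E10.5 was not tested, and among stage fits the carriers of erythrocyte, CE and MT markers were left out in one and those of muscle and sclerotome markers in another, but not the carriers of other markers. In MM at E10.5 the 7 immune markers (Csf1r, Cx3cr1, C1qb, Tyrobp, Ptprc, Fcer1g and Cd52) were each under 1 CPM and summed to at most 1.66 CPM. The 8 CE markers summed to 60.8 to 92.6, with Upk1b, Lhx2 and Msln under 1 CPM, and the 12 MT markers to 34.7 to 45.8, with 6 of the 12 under 1 in the mean of the libraries, Lhx1, Cdh1, Cdh16, Wnt9b and Ret among them. The 8 endothelial markers summed to 47.0 to 55.7, with Cdh5, Tek, Tie1 and Esam under 1. The 7 erythrocyte markers ranged most between libraries, from 36.4 to 342 CPM. Germ cell markers summed to 36.0 to 48.7, adrenosympathic and neural crest markers to 5.35 to 8.47, cortical adrenal markers to 3.57 to 5.41, lateral plate and limb markers to 8.34 to 14.7, and muscle and sclerotome markers to 9.74 to 62.2. The 5 perivascular markers summed to 379 to 497 CPM and none was under 1.

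At E10.5 the MM held more Acta2 and Tagln, more of several mesenchymal transcription factors and matrix genes than the CE and the tubules, and it held less of the keratin Krt18 than both and less Epcam than the tubules. Because the cell types were defined on these cells, the levels are a description and no test was made between them. Of 8648 genes at 10 CPM or more in MM or CE, 160 (1.85%) were at least 2-fold higher in MM in all 4 libraries and 200 (2.31%) at least 2-fold lower. Of 8996 genes at that level in MM or MT, 324 (3.6%) were higher and 468 (5.2%) lower. Altogether 99 genes were higher in MM than in both other types and 39 were lower than in both.

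The genes that stood highest over both types included several of the actin cytoskeleton. Acta2, the actin of smooth muscle, was at 227, 175, 278 and 215 CPM of the library total in MM, at 11.62 to 13.55 in CE and at 10.05 to 15.98 in MT. Tagln, an actin-binding protein of smooth muscle, was at 153, 153, 174 and 141 in MM against 12.2 to 28.3 in CE and 8.42 to 12.6 in MT. Actc1, the actin of heart and embryonic muscle, was at 68.5, 57.9, 78.7 and 83.1 against 3.16 to 11.6 and 3.72 to 5.64. The groups did not overlap for these genes in any library, and the mean fold over CE and over MT was 17.3 and 17.8 for Acta2, 9.08 and 15.7 for Tagln, and 12.9 and 14.6 for Actc1. Cnn2, a calponin that binds actin, was 3.93-fold over CE and 9.05-fold over MT. Ebf1, a transcription factor of mesenchymal and B cells, was at 128, 110, 100 and 140 in MM and nowhere above 10.6 in the other types, and Prrx1, a homeobox factor of mesenchyme, was at 112, 82.9, 104.8 and 99.4 and nowhere above 17.1. Crabp1, which binds retinoic acid in the cytoplasm, was at 270, 383, 312 and 469 in MM, 8.08-fold over CE and 5.64-fold over MT. Shisa3, named by the same rule, was at 110, 145, 153 and 145, which was 5.39-fold and 5.36-fold over CE and MT.

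**Figure D1:**
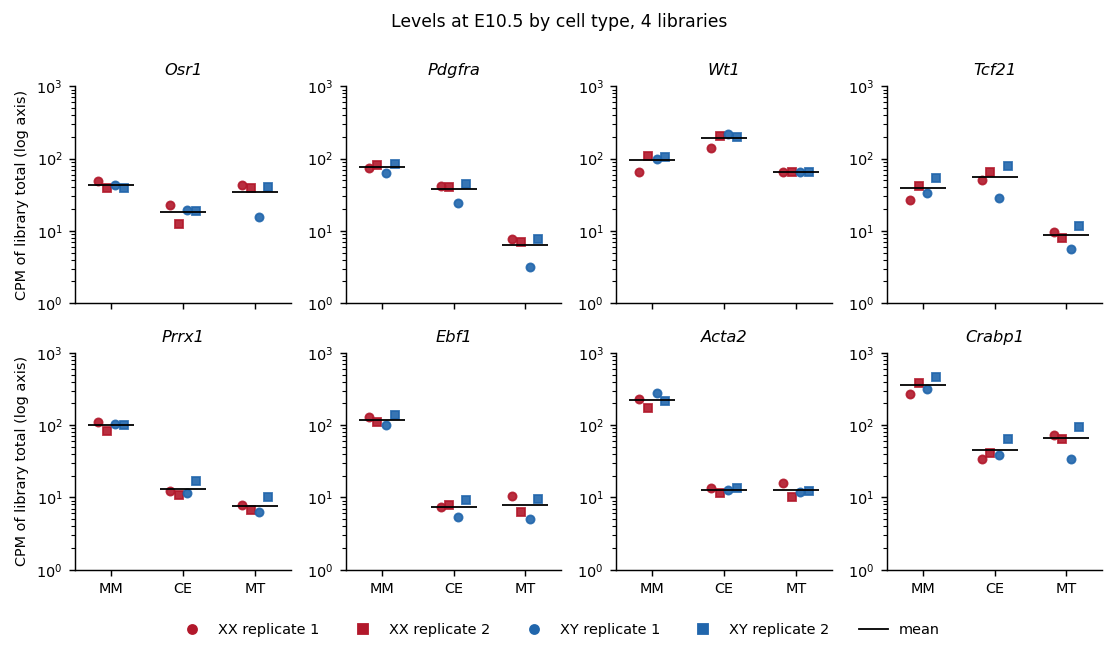
Levels of 8 genes in mesonephric mesenchyme (MM), coelomic epithelium (CE) and mesonephric tubules (MT) at E10.5, in CPM of the library total on a log axis, with 1 point for each of the 4 libraries and a bar at the mean. Prrx1, Ebf1, Acta2 and Crabp1 are higher in MM in every library, whereas Wt1 is highest in CE and Osr1 overlaps between MM and MT.

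By gene list, the mesenchymal transcription factors were 2-fold higher in MM than in CE for 8 of 21 measured members, lower for 0, and higher than in MT for 13 of 22, lower for 1. Twist1 and Twist2, which drive mesenchymal states, were at means of 30.0 and 33.8 CPM in MM, 8.24 and 7.46 in CE and 3.19 and 2.98 in MT. Tbx18, a T-box factor of urogenital and ureteric mesenchyme, was at 37.2, 48.5, 57.0 and 45.3 in MM and nowhere above 9.80 in CE or MT. Of the extracellular matrix list, 12 of 31 were higher than in CE and 0 lower, and 19 of 32 higher and 4 lower than in MT. Col1a1, the main fibrillar collagen chain, was at 177, 246, 263 and 260 CPM in MM, at 78.7 to 104 in CE and at 18.6 to 35.7 in MT. The small proteoglycans Bgn, Dcn and Lum were at means of 77.7, 26.0 and 11.2 in MM, all in excess of CE (15.0, 9.90 and 0.880) and of MT (4.79, 1.62 and 0.631). The 4 members lower than in MT included Npnt, an integrin ligand of basement membranes, at 4.80 to 5.09 in MM and 40.4 to 83.4 in MT.

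Epithelial genes went the other way: 6 of 8 measured members were lower than in CE and 15 of 16 lower than in MT, and none was higher. Epcam was at 3.95, 3.68, 2.25 and 2.84 CPM in MM and at 139 to 213 in MT, and the keratin Krt18 was at 19.9 to 34.9 in MM, 114 to 186 in CE and 154 to 286 in MT. Of the nephrogenic transcription factors 9 of 18 members were lower in MM than in MT and 2 higher, while against CE 5 of 10 were higher and 2 lower. Pax2, a paired box factor of the nephric lineage, was at 1.58 to 2.29 in MM and 99.3 to 116 in MT, and Pax8 was at 2.91 to 4.67 in MM, 11.7 to 20.5 in CE and 59.8 to 104 in MT. Eya1, a transcriptional coactivator of kidney development, was at 6.26 to 9.57 in MM, against 19.6 to 62.1 in MT. For Epcam, Pax2 and Eya1 every MM library was below every MT library.

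Genes of the gonadal and interstitial lineage list were lower in MM than in CE for 5 of 18 and higher for 1, and higher than in MT for 6 of 18 and lower for 1. Nr5a1 was at 7.78, 10.8, 8.71 and 10.47 CPM in MM and at 74.0 to 90.3 in CE. The GFP transcript was at 115.1, 150, 93.8 and 132 in MM and at a mean of 1828 ± 540 (SD, n = 4) in CE, and MT was at 72.9 ± 13.6. Lhx9 and Gata4, which act in the early gonadal ridge, were at means of 33.6 and 18.2 in MM, 215 and 58.3 in CE and 4.86 and 3.88 in MT. MT held Nr5a1 at 6.44 ± 2.29, which overlapped MM. The MM values are averages over 2 clusters that differ in these genes, as given below, and cluster 0 was at or below MT for several of them.

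For the signalling lists the counts are to be read beside the shares over all genes, 1.85% higher and 2.31% lower than in CE, and 3.6% higher and 5.2% lower than in MT, and many rest on 1 member. Of the BMP list 4 of 17 members were higher than in CE, among them the ligand Bmp4 at 97.1 ± 11.9 against 29.8 ± 2.32, and 1 of 19 was higher and 2 lower than in MT. Of the WNT list 5 of 22 were higher and 3 lower than in CE and 4 of 27 higher and 6 lower than in MT. For the retinoic acid list the counts were 2 of 12 higher and 1 lower, and 4 of 12 higher and 1 lower. Aldh1a1, a retinoic acid synthesis enzyme, was at 2.92 ± 0.968 in MM against 33.3 ± 9.94 in CE. Among the PDGF, KIT and chemokine signals 1 of 10 was higher and 1 lower than in CE, and 4 of 9 higher and 1 lower than in MT. Pdgfrb, a receptor of pericytes and stroma, was at 33.9, 46.9, 37.0 and 52.1 in MM and nowhere above 15.1 in CE or MT. Of the hedgehog list 1 of 9 and 2 of 10 were higher and 0 lower. The FGF list had 1 of 9 higher than in CE, and 1 of 13 higher and 5 lower than in MT, the GDNF and kidney induction list 0 of 4, and 5 of 8 lower than in MT, the Notch list 0 of 4, and 4 of 9 lower than in MT, and the IGF list 0 of 11, and 2 of 13 higher and 1 lower than in MT. The heterochronic and LIN28 list had no member called among 12 and 14. Glycolysis genes were lower than in CE for 2 of 16 and than in MT for 1 of 16. Of 25 cell cycle genes 1 differed from CE and 1 from MT: the cyclin Ccnd2 was at 450 ± 41.0 against 164 ± 27.0 in CE, and Ccnd1 at 64.8 ± 11.6 against 364 ± 81.2 in MT. The dissociation response genes, which rise when tissue is taken apart, were not called against CE and were lower than in MT for 2 of 16.

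MM at E10.5 fell into 2 clusters of the deposited clustering. Cluster 0 held 5541 cells and cluster 10 held 3472, and the remaining 31 lay in clusters 2 and 12, which held most of the MM at E11.5 (4812 and 3446 of 8351 cells). Cluster 0 made up 63.9%, 58.4%, 49.8% and 67.9% of the MM cells of the libraries. Of 8566 genes at 10 CPM or more in either cluster, 60 (0.7%) were at least 2-fold higher in cluster 0 in all 4 libraries and 153 (1.79%) at least 2-fold higher in cluster 10. Since the clusters were made from these same values, the differences are a description. None of the 4 label markers was among the 10 genes with the largest fold over all other E10.5 cells in either cluster, and those of cluster 0 included Acta2, which is also on the perivascular list.

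Cluster 0 held more Crabp1, more of the mesenchymal factors Prrx1, Ebf1 and Foxd1, and more Wt1. Crabp1 was at 366, 596, 544 and 640 CPM of the library total in cluster 0 and at 85.0, 67.9, 66.1 and 77.2 in cluster 10. Meox1, a homeobox factor of somites and their derivatives, was at 125, 44.4, 50.9 and 81.8 against 15.7, 10.1, 7.72 and 12.52, and Lhfp, named by the same rule, at 42.1, 90.8, 133 and 83.1 against 11.97, 15.6, 23.8 and 16.2. Prrx1 was at 149, 122, 157 and 130 against 38.8, 25.7, 49.1 and 28.2. The clusters did not overlap for any of these genes. Acta2 was at 308 ± 89.9 against 96.3 ± 17.1 (SD, n = 4), Ebf1 at 152 ± 19.5 against 64.4 ± 3.04, Foxd1, a factor of renal stroma, at 33.0 ± 4.09 against 10.47 ± 0.834, and Wnt4, a ligand of kidney and ovary development, at 55.2 ± 23.7 against 16.2 ± 3.70.

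Cluster 10 held more Lhx9, Gata4, Nr5a1 and GFP, which were highest in CE among the types compared, and more Tbx18, whereas Wt1, also highest in CE, was higher in cluster 0. Lhx9 was at 81.5, 80.7, 83.9 and 67.9 CPM in cluster 10 and at 4.54, 5.26, 7.06 and 4.76 in cluster 0, and the GFP transcript at 277, 306, 165 and 321 against 32.0, 45.6, 27.2 and 50.1. Nr6a1, an orphan nuclear receptor of the early embryo, was at 72.2, 92.3, 70.4 and 86.9 against 11.1, 11.9, 9.05 and 13.3. Nefm, a neurofilament gene, was at 239, 252, 312 and 235 against 30.2, 37.9, 59.7 and 41.6. Gata4 was at 42.3 ± 6.66 against 3.03 ± 0.896, Nr5a1 at 18.9 ± 3.87 against 3.91 ± 1.09, and Upk3b, a uroplakin of mesothelium, at 21.6 ± 7.96 against 1.92 ± 0.311. Tbx18 was at 87.4 ± 10.8 against 21.9 ± 2.08, Osr2 at 27.7 ± 5.21 against 5.40 ± 1.37, and Isl1, a LIM homeobox factor, at 46.7 ± 12.8 against 7.46 ± 1.15.

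The label markers behaved differently from each other between the clusters. Pdgfra, at 77.0, 80.4, 59.2 and 86.6 in cluster 0 and 66.7, 83.8, 68.3 and 82.3 in cluster 10, and Osr1, at means of 43.0 and 42.5, overlapped. Wt1 was at 112 ± 28.1 in cluster 0 and 65.4 ± 8.78 in cluster 10, and Tcf21 at 26.8 ± 7.73 and 61.2 ± 24.7. The share of cells in S or G2M phase in the deposited phase calls was 82.5% to 89.9% in cluster 0 and 53.9% to 69.98% in cluster 10. Cluster 10 had slightly more of its cells among the highest 5% of doublet scores (5.62% against 4.04%), and its median UMI count was 23010 against 24702. What part cells of CE, doublets or free RNA have in the levels of Lhx9, Nr5a1 and GFP in cluster 10 was not tested.

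**Figure D2:**
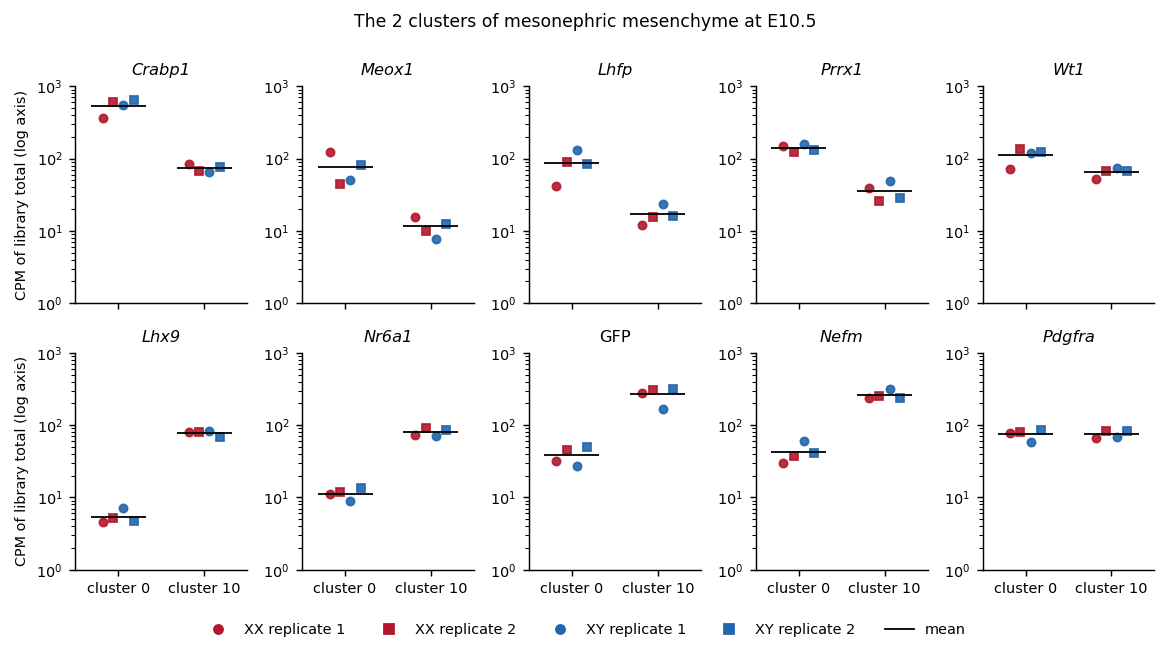
Levels of 10 genes in cluster 0 and cluster 10 of the mesonephric mesenchyme at E10.5, in CPM of the library total on a log axis, with 1 point for each of the 4 libraries and a bar at the mean. Crabp1, Meox1, Lhfp and Prrx1 are higher in cluster 0 and Lhx9, Nr6a1, GFP and Nefm in cluster 10 in every library, and Pdgfra overlaps.

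Small sets of cells inside MM carried genes of somite derivatives. The sets were picked after the values had been seen and are described without a test. Myog, the myogenic factor that marks differentiating muscle cells, had 3 or more UMIs in 33 cells (15, 4, 2 and 12 by library), of which 32 lay in cluster 0, and in 0 cells of MM at E11.5. These cells held 94.3% of all Myog UMIs of MM at E10.5. Their summed levels were 1983 CPM of Actc1 against 61.1 in the rest of the MM, 247 CPM of Ttn, the giant sarcomere protein, against 0.215, and 464 CPM of Myod1, a myogenic factor, against 0.219. Wt1 was at 16.2 CPM in them against 97.9 and Tbx18 at 3.24 against 46.7. They had a median of 35039 UMIs, and 3 of the 33 were among the highest 5% of doublet scores.

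A larger set held at least 2 UMIs of Pax1 and Pax9, the paired box factors of the sclerotome, from which vertebrae and ribs form. It had 188 cells (82, 13, 19 and 74 by library, or 4.97%, 0.441%, 1.35% and 2.43% of MM), 187 of them in cluster 0, and there was none at E11.5. In these cells Col2a1, the collagen of cartilage, was at 137 CPM against 22.2 in the rest, Meox1 at 223 against 47.9, Meox2 at 48.8 against 2.27 and Foxf2, a forkhead factor, at 42.6 against 1.56. Wt1 was at 23.0 against 99.2 and Tcf21 at 1.98 against 42.4, while Pdgfra was at 96.3 against 78.1. XX replicate 1 and XY replicate 2 held most cells of both sets. With the counting rule widened to 2 or more UMIs over all muscle and sclerotome markers, the cells were 6.91%, 0.679%, 2.14% and 3.45% of the MM of the libraries at E10.5, and 3 cells in all at E11.5. Whether they are mesonephric cells or cells taken along with the dissection was not tested.

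More MM cells were called S or G2M at E10.5 than at E11.5, a statement about phase calls, which rest on scores of cell cycle genes. In the deposited phase calls 82.7%, 71.8%, 70.9% and 74.9% of MM cells were in S or G2M at E10.5, and 52.9%, 57.2%, 47.9% and 50.6% at E11.5. The stages did not overlap, and the difference of 22.9 percentage points (75.1 ± 5.37 against 52.2 ± 3.94, SD, n = 4 each) had p = 0.0286 in a two-sided exact permutation test, the smallest this design can give. With XX and XY libraries of a date averaged, 2 dates remained a stage, and the exact permutation test gave p = 0.333, its smallest value. Cells at E10.5 were deeper. With cells thinned to 10000 UMIs and their phase called again the difference was 20.6 points at the same p, on the exact permutation test. This left out 8 cells under that depth at E10.5 and 56, 147, 435 and 247 at E11.5. At E10.5 the share in CE was 82.9%, 64.0%, 69.0% and 69.0%, and that in MT 73.2%, 53.1%, 49.9% and 59.7%. At that stage MM was above MT in each of the 4 libraries and above CE in 3 of them. At E11.5 the share was 55.2%, 56.4%, 58.1% and 53.9% in CE and 22.2%, 30.9%, 19.0% and 24.7% in MT. Both types were thus lower at E11.5 without overlap, so the fall was not particular to MM. The share of MM among all cells, 60.0 ± 6.37% at E10.5 and 50.9 ± 8.996% at E11.5, differed by 9.03 points with p = 0.143 in the same exact permutation test. It was 4.60 points without the library E11.5 XY replicate 2.

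Between the stages the MM of E10.5 had a larger share of members called higher than lower in the lists of Hox genes, cell cycle genes, glycolysis and hypoxia genes and heterochronic and LIN28 genes, and a larger share called lower in the lists of matrix, WNT, FGF, Notch and dissociation response genes. The lists were chosen with earlier results of these data known, so these shares are a description. Summed counts of MM cells were tested with edgeR, and 5985 of 19960 genes (30.0%) passed an adjusted p of 0.05 and a natural log fold change of 0.25, of which 2632 (13.2% of those tested) were higher at E10.5 and 3353 (16.8%) lower. Levels in this comparison are CPM scaled by TMM, and log2 fold changes are E10.5 over E11.5. Scaling by library totals instead shifted the differences toward E11.5, by 0.165 on the log2 scale as computed from the TMM factors, though not by the same amount for every gene. It called 6165 genes, of which 24.1% were higher at E10.5, against 44.0% with TMM, and moved the median of all genes from -0.02 to -0.19. The MM of each stage came mostly from different clusters (0 and 10 at E10.5, 2 and 12 at E11.5). Without E11.5 XY replicate 2 the count was 5266 and without E11.5 XX replicate 2 it was 5243. With cells that carried UMIs of erythrocyte, CE or MT markers left out, a step that removed 19.5% to 78.5% of MM cells of the E10.5 libraries and 11.2% to 96.8% at E11.5, it was 3639. With the XX and XY sums of a date added together it was 4423.

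All 4 label markers differed between the stages, in both directions. Osr1 was at 54.1, 42.2, 43.6 and 42.6 TMM-scaled CPM at E10.5 and 28.2, 29.1, 28.0 and 35.8 at E11.5 (log2 fold change 0.59 ± 0.11 SE, adjusted p = 0.00517). Pdgfra was at 80.4, 87.1, 63.7 and 91.6 against 61.0, 55.9, 57.1 and 58.2 (0.47 ± 0.12, adjusted p = 0.0154), a call that was lost with library totals (adjusted p = 0.0548), without E11.5 XX replicate 2 (0.0528) and, for its size, without E10.5 XY replicate 2. Wt1 was at 71.5, 117, 97.4 and 113 against 174, 167, 159 and 156 (-0.72 ± 0.14, adjusted p = 0.00632). Tcf21 was at 29.0, 44.8, 33.8 and 57.4 against 167, 81.4, 181 and 104.6 (-1.70 ± 0.33, adjusted p = 0.00989). The stages did not overlap for any of the 4: Osr1 and Pdgfra were higher in every E10.5 library, and Wt1 and Tcf21 lower in every one. Some markers of other cell types were also called by stage, where 13.2% of all genes were higher at E10.5 and 16.8% lower. Of those of muscle and sclerotome 5 of 5 tested members were higher at E10.5, of lateral plate and limb 3 of 4, of perivascular cells 3 of 5 and of adrenosympathic and neural crest cells 3 of 6, with none lower. Myog, Pax1 and Pax9 had 0 UMIs at E11.5, so they entered the test through E10.5 alone and could only be called higher there. Pax3 had 10 UMIs at E11.5 and Myod1 18, so the 5 of 5 is no independent support. Of the germ cell markers 4 of 7 were lower and 1 higher, of the MT markers 4 of 12 lower and 4 higher, of the CE markers 1 of 7 lower and 2 higher, and of the endothelial markers 2 of 8 lower and 1 higher. None of 7 erythrocyte and none of 6 immune markers was called.

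The genes with the largest excess at E10.5, by the naming rule, were Myog, Arg1, Col9a1, Isl1, Meox1 and Col2a1. Arg1 (chr10:24915221-24927484), the arginase that splits arginine into urea and ornithine, was at 52.7, 29.7, 22.2 and 37.6 TMM-scaled CPM against 1.11, 1.36, 1.15 and 1.78 (4.73 ± 0.29, adjusted p = 0.000182). Isl1 (chr13:116298281-116309689) was at 22.6, 27.5, 32.7 and 14.7 against 2.47, 2.00, 2.07 and 2.65 (3.40 ± 0.27, adjusted p = 0.000299). For both genes every E10.5 library was more than 5 times as high as any at E11.5. The cartilage collagens were higher as well: Col9a1 was at 78.2, 55.9, 42.6 and 67.6 against 4.63 to 6.73 (3.41 ± 0.22, adjusted p = 0.00018) and Col2a1 at 32.0, 21.3, 17.2 and 32.2 against 3.91 to 5.43 (2.50 ± 0.24, adjusted p = 0.000476). Meox1 (chr11:101877510-101894374) was at 95.9, 32.6, 30.0 and 65.2 against 4.24 to 6.56 (3.24 ± 0.43, adjusted p = 0.00247). XX replicate 1 and XY replicate 2, the libraries with more cells that carried muscle or sclerotome markers, were the higher E10.5 libraries for Meox1, Col2a1, Arg1, Col9a1 and Myog, but not for Isl1. Without the cells that carried such markers the log2 fold changes were 3.06 for Meox1, 2.32 for Col2a1, 4.70 for Arg1, 3.36 for Col9a1 and 3.43 for Isl1, all still called.

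Myog (chr1:134289989-134292548) was at 47.1, 7.93, 4.54 and 28.9 TMM-scaled CPM at E10.5 and at 0 in all 4 libraries at E11.5. Its 4697 UMIs against 0 make it at least 971-fold higher at E10.5, with the floor set at 3 UMIs over the E11.5 group, and it was called at adjusted p = 0.0261. The call was lost on leaving out any library other than E10.5 XX replicate 2 (adjusted p 0.0502 to 0.0699). Pax9 had 832 UMIs and Pax1 362 at E10.5, against 0 of both at E11.5. The 33 cells described above held 94.3% of the Myog UMIs.

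Among genes at 20 CPM or more in a stage mean, those with the largest deficit at E10.5 were Nbl1, Nr4a1, Col14a1, Mgp, Egr1 and Btg2. Nbl1, a secreted antagonist of BMP ligands, was at 2.08, 8.87, 9.96 and 5.36 TMM-scaled CPM at E10.5 against 40.3, 58.2, 66.6 and 56.5 (-3.08 ± 0.46, adjusted p = 0.00365). Col14a1, a collagen that associates with fibrils, was at 2.68, 1.96, 5.13 and 2.22 against 19.4, 16.1, 23.7 and 22.2 (-2.81 ± 0.26, adjusted p = 0.000399). Mgp, the matrix Gla protein that restrains calcification, was at 3.50, 7.52, 10.6 and 8.28 against 56.9, 34.9, 63.3 and 47.7 (-2.81 ± 0.28, adjusted p = 0.000781). The naming rule took only called genes whose libraries did not overlap between the stages, so their separation is part of the rule. Egr1, Nr4a1 and Btg2 are immediate early or stress-induced genes. Egr1 was at 20.6, 21.6, 89.1 and 17.9 against 258, 169, 249 and 246 (-2.78 ± 0.48, adjusted p = 0.0064) and Btg2 at 14.1, 21.2, 77.8 and 26.5 against 184, 170, 188 and 269 (-2.73 ± 0.36, adjusted p = 0.00249). Nr4a1 was at 8.06, 6.01, 48.7 and 8.25 against 88.3, 97.4, 87.2 and 154 (-2.91 ± 0.55, adjusted p = 0.00895), a call lost without E10.5 XX replicate 1 (0.0562) or XX replicate 2 (0.0610) and with the libraries of a date summed (0.0676). XY replicate 1 was the highest of the E10.5 libraries for Egr1, Btg2 and Nr4a1 by more than 2-fold. The dissociation response list, which holds Egr1 and Btg2 but not Nr4a1, had 12 of 17 members lower and 1 higher at E10.5, with a median log2 fold change of -1.55. Among all genes 16.8% were called lower and 13.2% higher.

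**Figure D3:**
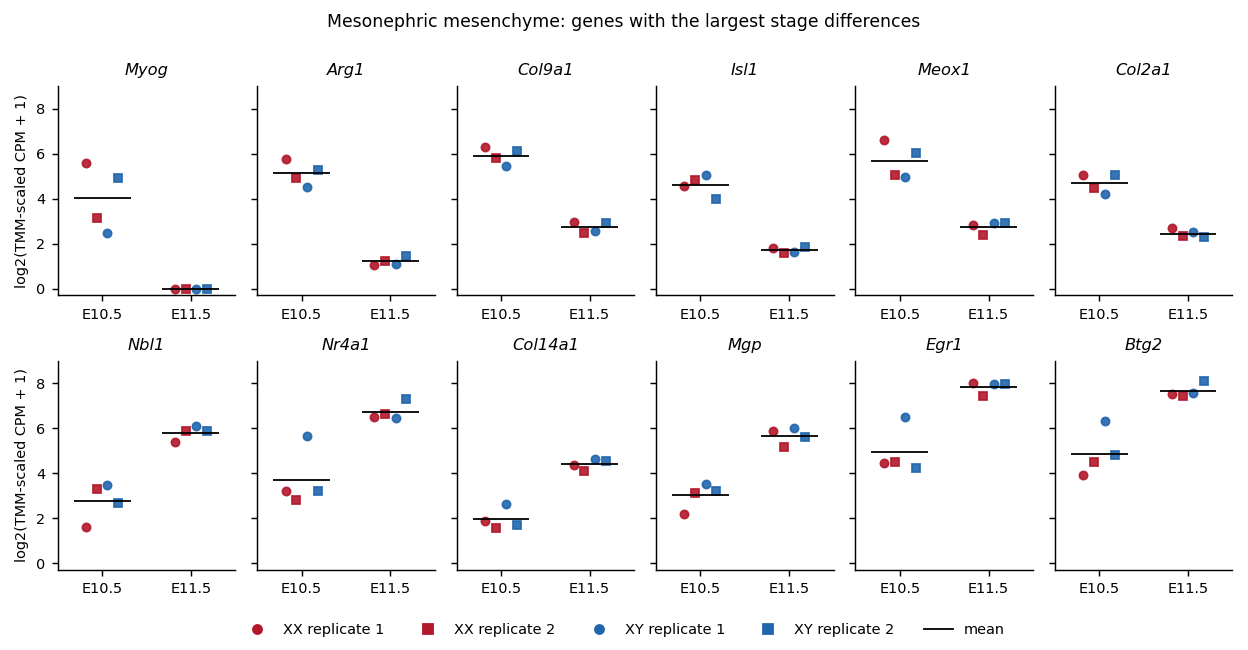
Levels of the 12 genes named for the stage comparison in mesonephric mesenchyme at E10.5 and E11.5, as log2 of TMM-scaled CPM plus 1, with 1 point for each of the 4 libraries of a stage and a bar at the mean. The upper row holds the genes higher at E10.5, with Myog at 0 in all 4 libraries at E11.5, and the lower row those lower at E10.5, where XY replicate 1 is the highest E10.5 library for Nr4a1, Egr1 and Btg2.

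Extracellular matrix genes were mostly lower at E10.5, with 24 of 43 tested members lower, 4 higher and 15 not called. Their median log2 fold change was -0.58, beside -0.02 over all genes. Of all genes 16.8% were called lower and 13.2% higher, so the higher count did not exceed its share. Col1a1 was at 194, 262, 264 and 279 TMM-scaled CPM at E10.5 against 434, 389, 412 and 379 (-0.70 ± 0.11, adjusted p = 0.00222). The small proteoglycan Dcn was at 21.7, 24.3, 41.5 and 21.5 against 148, 176, 161 and 169 (-2.60 ± 0.20, adjusted p = 0.000287). The collagen VI chains were all lower, with log2 fold changes of -2.43 for Col6a1, -2.64 for Col6a2 and -2.71 for Col6a3. The stages did not overlap for Col1a1 or Dcn. The 4 members higher at E10.5 included Hapln1, which links hyaluronan to proteoglycans, at 54.9, 49.9, 50.6 and 48.3 against at most 16.4 (1.90 ± 0.11, adjusted p = 0.00015). Fibronectin, Fn1, was also higher, at 142, 146, 146 and 155 against 87.9 to 103 (0.61 ± 0.08, adjusted p = 0.00133), and so was Tnc, tenascin C (1.83 ± 0.25, adjusted p = 0.00161).

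Transcription factors changed in both directions, beside 13.2% of all genes called higher at E10.5 and 16.8% lower. Of 26 mesenchymal factors 8 were higher and 9 lower at E10.5, and of 22 nephrogenic factors 7 were higher and 7 lower. Tbx18 was at 40.8, 51.8, 57.1 and 48.7 TMM-scaled CPM against 18.0, 17.8, 16.9 and 22.8 (1.39 ± 0.13, adjusted p = 0.000389). Sall1 and Sall4, zinc finger factors of kidney and of early progenitors, were also higher (log2 fold changes 1.88 and 2.33), as were Ebf1 (0.80), Prrx1 (0.57), Foxc1 (0.53) and Foxc2 (0.82). On the other side Nr2f2, an orphan nuclear receptor of mesenchyme, was at 225, 326, 283 and 316 against 482, 459, 451 and 463 (-0.69 ± 0.12, adjusted p = 0.00339). Osr2 (-1.42), Tbx3 (-1.52), Maf (-1.01) and Emx2 (-0.98) were lower too. Among 22 gonadal and interstitial lineage genes 6 were higher and 8 lower, or 3 and 10 with library totals and 4 and 5 without cells carrying UMIs of other types. Lhx9 and Gata4 were called higher at E10.5 (0.83 ± 0.22, adjusted p = 0.0202, and 0.80 ± 0.21, adjusted p = 0.0209), but Lhx9 turned to -0.31 (adjusted p = 0.400) once cells with UMIs of other types, whose marker list contains Lhx9, were left out. Lhx9 and Gata4 each lost the call on leaving out any of 4 libraries, both of them without E10.5 XX replicate 2, E11.5 XX replicate 1 or E11.5 XY replicate 1, Lhx9 also without E10.5 XX replicate 1 and Gata4 without E10.5 XY replicate 1 (adjusted p 0.0519 to 0.0788).

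The growth factor lists differed in direction, with most calls lower at E10.5 for WNT, FGF and Notch and an even split for IGF, which became 2 higher and 4 lower with library totals. Over all genes 13.2% were called higher and 16.8% lower, and the BMP and hedgehog shares called higher lay near that. With library totals 1486 of 19960 genes were higher and 4679 lower. With the libraries of a date summed the counts were 1946 and 2477 of 20638. Without cells carrying UMIs of other types they were 1673 and 1966 of 16477. Of the WNT list 16 of 39 members were lower and 4 higher at E10.5, with a median log2 fold change of -0.45. Wnt5a, a ligand of non-canonical signalling, was at 29.6, 26.2, 24.8 and 30.2 TMM-scaled CPM against 77.9, 59.6, 78.7 and 68.9 (-1.36 ± 0.12, adjusted p = 0.000328), and Axin2 and Lef1, a target and a nuclear effector of canonical signalling, were lower at E10.5, with log2 fold changes of -1.06 and -0.78. Wnt4 was at 19.5, 56.7, 38.6 and 54.1 against 130, 87.5, 122 and 80.9 (-1.32 ± 0.36, adjusted p = 0.0318), a call lost without E10.5 XY replicate 1 or 2 or without replicate 1 of E11.5 of either sex (adjusted p 0.0764 to 0.110). Of the FGF list 11 of 22 were lower and 3 higher, or 11 and 0 with library totals. Spry2, an FGF-induced feedback inhibitor, was at 7.27, 10.8, 13.9 and 10.8 against 54.0, 69.8, 52.3 and 84.3 (-2.62 ± 0.21, adjusted p = 0.000299), with Spry1 (-1.76) and Spry4 (-1.84) also lower. Of the Notch list 7 of 17 were lower and 1, Notch3 (0.52 ± 0.15, adjusted p = 0.029), higher, the latter not called without replicate 2 of E10.5 or E11.5 of either sex or without E11.5 XY replicate 1 (adjusted p 0.0648 to 0.0925). Hes1, a repressor that Notch induces, was at 68.3, 80.4, 86.9 and 98.7 against 469, 523, 455 and 536 (-2.58 ± 0.11, adjusted p = 8.02e-05), and the ligand Jag1 was lower too (-1.80). In the BMP list, where the counts became 6 higher and 6 lower without cells carrying UMIs of other types, 5 of 29 were higher, among them Bmp5 (0.99) and Bmper (0.76), and 9 lower, among them Bmp7 (-1.15) and Gdf6 (-3.27). In the hedgehog list 3 of 16 were higher and 5 lower (3 and 2 with the libraries of a date summed), the receptor Ptch1 among the latter (-0.48 ± 0.13, adjusted p = 0.0201), though not without E10.5 XX replicate 2 or replicate 1 of E11.5 of either sex (0.0531 to 0.0751).

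Of 18 retinoic acid genes 5 were higher at E10.5 and 2 lower, the latter below the 16.8% called lower over all genes, or 3 and 4 with library totals. The share called higher over all genes was 13.2%. Crabp2, which carries retinoic acid to its receptor, was at 294, 233, 187 and 251 TMM-scaled CPM against 86.4, 81.2, 80.6 and 76.5 (1.57 ± 0.12, adjusted p = 0.000261), and Crabp1 was higher as well (0.90 ± 0.17, adjusted p = 0.00584, but 0.0571 without cells carrying UMIs of other types). The 2 lower members both act in retinoic acid synthesis: Aldh1a2 was at 104.8, 136, 123 and 131 against 251, 293, 279 and 250 (-1.12 ± 0.11, adjusted p = 0.00044), and Rdh10 was lower too (-1.63). The other synthesis enzymes, Aldh1a1 (0.40, adjusted p = 0.194) and Aldh1a3 (-0.55, adjusted p = 0.318), were not called. In the PDGF, KIT and chemokine list 4 of 16 were higher and 6 lower. Kitl, the ligand of KIT that migrating germ cells need, was at 84.2, 61.2, 89.3 and 58.3 against 20.3, 22.5, 17.2 and 25.4 (1.78 ± 0.19, adjusted p = 0.000644). Cxcl12, a chemokine that guides them, was at 611, 569, 616 and 610 against 280, 258, 269 and 364 (1.04 ± 0.11, adjusted p = 0.000532). The stages did not overlap for either gene. In the GDNF and kidney induction list 4 of 14 were higher and 5 lower, and both Gdnf (0.232 to 0.732 against 1.87 to 2.89 CPM) and Itga8, an integrin chain of kidney mesenchyme (5.91, 10.7, 15.6 and 10.4 against 46.3 to 54.5), were among the lower. In the IGF list 3 of 13 were higher, including Igf1 (1.28 ± 0.11, adjusted p = 0.000321), and 3 lower, including Igfbp3 (-2.24 ± 0.39, adjusted p = 0.00639).

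More members were called higher than lower at E10.5 in the heterochronic, cell cycle and glycolysis lists. Of 14 heterochronic and LIN28 genes 9 were higher and 2 lower, at a median log2 fold change of 0.51, or 6 and 2 with library totals. Lin28a, which blocks the maturing of let-7 microRNAs, was at 17.5, 12.3, 5.13 and 13.1 TMM-scaled CPM against 0.602 to 0.731 (4.18 ± 0.34, adjusted p = 0.000295). Trim71, a let-7 target of early progenitors, was higher (log2 fold change 1.83), as was Hmga1, a chromatin protein (1.68), while Hmga2, at 0.05 ± 0.08 (adjusted p = 0.695), was not called. Dlk1, an imprinted gene of embryonic progenitors, was at 1122, 965, 562 and 1058 against 282 to 372 (1.50 ± 0.19, adjusted p = 0.0013). Of 26 cell cycle genes 13 were higher and 1 lower, among the former Top2a (0.66) and Ccnb1 (0.69). With library totals 6 were higher, and without cells carrying UMIs of other types 3. Of 20 glycolysis and hypoxia genes 9 were higher and 2 lower, and Aldoa, a glycolytic aldolase, was at 659, 563, 476 and 604 against 243 to 270 (1.15 ± 0.10, adjusted p = 0.000333). Epithelial genes, low in these cells, had 3 of 22 higher and 5 lower, beside 13.2% and 16.8% over all genes, so the higher count was near that share.

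**Figure D4:**
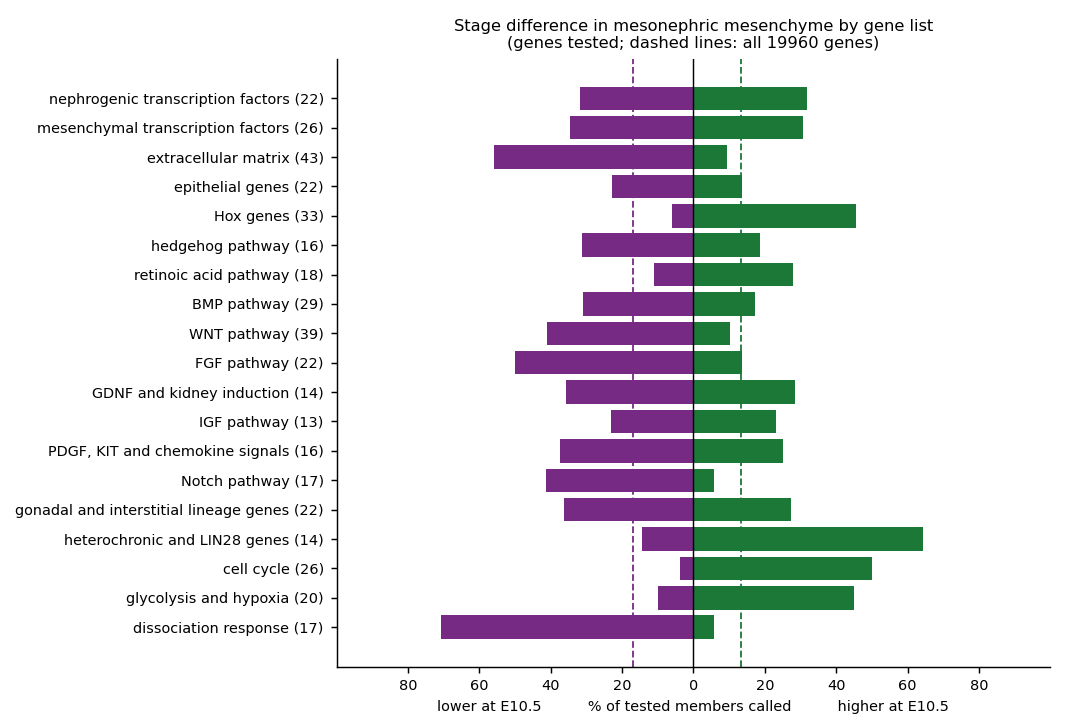
Share of the tested members of each gene list called higher at E10.5 (right, green) or lower at E10.5 (left, purple) in mesonephric mesenchyme, in percent, with the number tested in brackets. Dashed lines mark the shares over all 19960 genes, 13.2% higher and 16.8% lower: the Hox, heterochronic, cell cycle and glycolysis lists reach well past the line for higher genes, and the matrix, FGF, WNT, Notch and dissociation lists past the line for lower genes. The lists were chosen with earlier results of these data known.

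Hox genes, which set position along the body axis in the order of their paralog groups, were higher at E10.5 for 15 of 33 tested genes and lower for 2 (median log2 fold change 0.44), or 10 and 4 with library totals and 11 and 3 without cells carrying UMIs of other types. The shares over all genes were 13.2% higher and 16.8% lower. Most of the calls fell in groups 1 to 9, which also hold most of the tested genes. Single calls within a group or cluster rest on few genes and are no result about position. In groups 1 to 3 there were 3 of 8 higher, in groups 4 to 7 there were 8 of 12 higher and 1 lower, in groups 8 and 9 there were 4 of 7 higher, in group 10 none of 3, and in groups 11 to 13 there was 1 of 3 lower. By cluster, 8 of 9 tested Hoxb genes were higher, against 4 of 10 Hoxa, 2 of 7 Hoxc and 1 of 7 Hoxd genes, with 1 lower in each of the last 2 clusters. Hoxb9 was at 23.7, 17.4, 14.2 and 21.6 TMM-scaled CPM against 3.12 to 5.63 (1.98 ± 0.21, adjusted p = 0.000569) and Hoxb8 at 16.3, 14.2, 7.56 and 11.46 against 3.25 to 3.95 (1.75 ± 0.17, adjusted p = 0.000455). The exception in groups 4 to 7 was Hoxc5, at 50.5, 49.5, 42.5 and 51.6 against 46.5 to 86.9 (-0.50 ± 0.15, adjusted p = 0.0338), and that in the posterior groups was Hoxd11 (-1.71 ± 0.50, adjusted p = 0.0336). Hoxc5 lost its call without E10.5 XX replicate 1 or 2, E10.5 XY replicate 1 or replicate 1 of E11.5 of either sex (adjusted p 0.0809 to 0.113), and Hoxd11 without E10.5 XY replicate 1 or any library of E11.5 (0.0613 to 0.103).

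Summed by group on the scale of CPM of the library total, groups 1 to 3 were at 138, 115.3, 102 and 119 in MM at E10.5 and at 88.0, 60.2, 88.4 and 72.8 at E11.5. Group 10 was at 54.7, 86.4, 53.2 and 135 at E10.5 and at 101, 103, 131 and 209 at E11.5. Within both stages XY replicate 2 was the highest library for group 10, and at E10.5 both libraries of replicate 1 were the lowest. At E10.5 the sum of groups 1 to 3 was 59.1 ± 15.4 (SD, n = 4) in CE and 215 ± 8.16 in MT, beside 119 ± 14.9 in MM, and that of groups 4 to 7 was 451 ± 74.6 in CE, 646 ± 29.0 in MT and 514 ± 31.1 in MM. Of 23 Hox genes measured at 10 CPM or more, 6 were 2-fold higher in MM than in CE and 0 lower, and of 24 against MT 1 was higher and 7 lower. Hoxc10 was at 42.3, 58.9, 40.5 and 96.8 CPM of the library total in MM against 7.78, 17.3, 13.7 and 23.2 in CE.

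**Figure D5:**
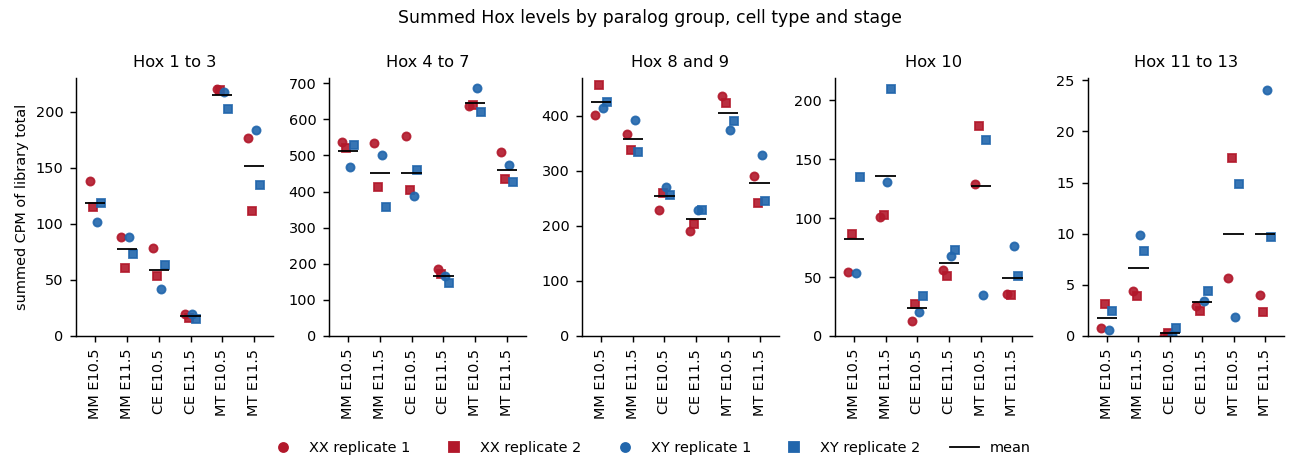
Summed levels of the Hox genes of 5 paralog groups in mesonephric mesenchyme (MM), coelomic epithelium (CE) and mesonephric tubules (MT) at E10.5 and E11.5, in CPM of the library total, with 1 point for each library and a bar at the mean. In MM groups 1 to 3 fall from 119 to 77.3 on average and group 10 is at 82.3 and 136, while in CE groups 4 to 7 fall from 451 to 167.

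Whether the stage difference of MM differed from that of its neighbours was tested with the library as a block. Against CE, 2735 of 18145 genes (15.1%) differed, 1305 (7.19%) with a higher and 1430 (7.88%) with a lower E10.5-over-E11.5 change in MM. The count was 2702 without E11.5 XX replicate 2, 2410 without E11.5 XY replicate 2 and 926 with equal numbers of cells in every sum. Against MT, 4509 of 18161 (24.8%) differed, 2154 (11.9%) higher and 2355 (13.0%) lower, and the same settings gave 4200, 4243 and 2181. In this stage change, not in level, Hox genes differed from CE for 22 of 32, with 5 higher and 17 lower. Of groups 4 to 7 alone the change was lower in MM for 10 of 12 and higher for 0. Against MT 5 of 34 were higher and 13 lower.

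The largest negative differences against CE were in genes that were lower in MM at E10.5 than at E11.5 while they fell in CE. Gata2, a zinc finger factor of urogenital and blood cells, rose in MM from 25.9 ± 10.7 TMM-scaled CPM at E10.5 to 128 ± 25.4 a day later and was at 32.0 ± 16.9 and 7.48 ± 2.38 in CE (difference -4.43 ± 0.47, adjusted p = 0.000914). Tbx3, a T-box factor, was at 22.9 ± 4.55 and 66.3 ± 12.9 in MM and at 17.9 ± 3.68 and 6.76 ± 1.45 in CE (-2.95 ± 0.13, adjusted p = 4.09e-10), and its divergent neighbour Tbx3os1 behaved alike (-3.55 ± 0.20, adjusted p = 1.01e-09). Alx1, a homeobox factor of mesenchyme, was at 56.0 ± 7.98 and 129 ± 8.85 in MM and at 44.9 ± 15.5 and 9.70 ± 1.51 in CE (-3.42 ± 0.31, adjusted p = 0.00041). At E10.5 both types thus held Gata2, Tbx3 and Alx1 at overlapping levels. Igfbp3 (-3.50 ± 0.36) and Mgam (-3.02 ± 0.17) were the others named on this side. Gata2, Igfbp3, Tbx3 and Alx1 were among the 10 genes with the largest fold of MM cluster 2 over all other E11.5 cells. Tbx3os1 and Mgam were not. Gata2 was at 245 CPM of the total in that cluster, against 16.1 in the other E11.5 cells. The largest positive differences were Actc1 (3.69 ± 0.43, adjusted p = 0.00135), which fell in MM from 74.3 ± 10.9 to 19.4 ± 5.45 and rose in CE from 6.42 ± 3.64 to 24.7 ± 13.4, and Calb1, Cd55, Nrg1, Map2 and Mef2c, for which CE rose. Calb1, a calcium-binding protein, was at 4.25 ± 1.41 and 2.99 ± 0.659 in MM and at 11.4 ± 2.49 and 95.4 ± 16.53 in CE.

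Against MT the genes with the largest positive difference were low in MM at both stages. Trh, Dao, Vil1, B3gat2, Tinag and Fut9 were at means of 0.119 to 0.697 CPM in MM at E10.5, and their differences of 3.79 to 4.78 came from a rise in MT, for Trh from 0.584 ± 0.287 to 26.1 ± 4.18. Dao, Vil1 and B3gat2 were not called with equal numbers of cells (adjusted p 0.156 to 0.531). On the other side Col14a1 (-4.17 ± 0.56, adjusted p = 0.000649), Mgp (-3.73 ± 0.43, adjusted p = 0.000538) and Itga8 (-3.07 ± 0.61, adjusted p = 0.0101) rose in MM and not in MT. Hoxc10 (-2.51 ± 0.55, adjusted p = 0.016) was at 63.5 ± 28.5 and 88.0 ± 32.2 in MM and at 91.1 ± 46.7 and 21.001 ± 9.72 in MT. Its call was lost without E11.5 XX replicate 1 (adjusted p = 0.0538). Ntrk2, a neurotrophin receptor, was at 79.7 ± 18.2 and 88.4 ± 11.9 in MM and at 26.9 ± 6.95 and 5.43 ± 0.663 in MT, and Sorbs2 (-2.36 ± 0.36), not called with equal numbers of cells (adjusted p = 0.0802), was also named.

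By list, the counts below are of the E10.5-over-E11.5 change in MM against that in the other type, not of levels. Over all genes this change was higher in MM for 7.19% and lower for 7.88% against CE, and for 11.9% and 13.0% against MT. The mesenchymal transcription factors differed from CE in 17 of 25 (6 higher and 11 lower) and from MT in 13 of 25, all lower. Of 26 cell cycle genes 5 were higher and 0 lower against CE, and 0 higher and 12 lower against MT. Matrix genes differed from CE in 17 of 42 (7 higher and 10 lower) and from MT in 28 of 42 (11 and 17). Epithelial genes had 0 of 20 higher and 4 lower against CE and 13 of 22 higher and 1 lower against MT. The dissociation response genes went the other way, with 4 of 17 higher and 0 lower against CE and 0 higher and 6 lower against MT. The WNT list had 7 of 39 higher and 9 lower against CE and 7 of 38 higher and 11 lower against MT. The heterochronic and LIN28 list had 3 of 14 higher and 4 lower against CE, and the same counts against MT. The glycolysis and hypoxia list had 1 of 20 higher and 1 lower against CE, and 3 and 3 against MT. The glycolysis counts against CE lay near the shares over all genes, so they are no result about these members.

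MM of XX and XY embryos at E10.5 differed in sex-linked genes. Kdm5d, a Y-linked histone demethylase gene, was at 0, 0, 17.3 and 14.1 TMM-scaled CPM (adjusted p = 0.00218) and Gm4017, an unplaced predicted gene, at 0.169, 0.159, 4.39 and 4.78 (adjusted p = 0.0289). They were the 2 of 19960 genes (0.01%) called, and 461 had an unadjusted p under 0.05. Xist was at 1427, 1475, 0.439 and 0.749, and Ddx3y at 0, 0, 70.5 and 60.9, so each library fits its label, yet their adjusted p was 0.428 and 0.388 in a fit that shares its spread with E11.5. With the 4 E10.5 libraries alone 7 genes were called, Xist and Tsix higher in XX and Gm4017, Eif2s3y, Uty, Ddx3y and Kdm5d higher in XY, and with DESeq2 10. Kdm6a, an X-linked demethylase gene that escapes inactivation, was at 27.6, 27.3, 19.1 and 19.9, with every XX library above every XY library (0.49, adjusted p = 0.644). Of the gene lists, that of Y-linked genes had 1 of 4 tested members called by sex, Kdm5d, and the others none. No gene was called for a sex difference that changed between the stages (0.0% of 19960 genes by edgeR, with 465 at an unadjusted p under 0.05, and 2 by DESeq2).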

How the data were processed

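The authors made the deposited counts with Cell Ranger 2.1 on GRCm38, per the submitters' processing notes, from 10x Genomics 3′ libraries. The deposited matrix of UMI counts has 26397 genes and 94705 cells, and a cell table gives sample, stage, cell type, cluster and phase. Cell types are the authors' and were used as deposited. The members and gene lists were chosen with earlier results of these data known.

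Sums of UMI counts over the cells of each type in each library were tested with edgeR 4.0.16 (quasi-likelihood, TMM, Benjamini-Hochberg adjusted p under 0.05 and natural log fold change of 0.25). Stage and sex were fitted on 8 sums of MM, and the comparisons with CE and MT had the library as a block. Levels between types and clusters (2-fold in all 4 libraries, 10 CPM in either) were not tested. Shares were compared with two-sided exact permutation tests. Named genes were called genes with the largest change, at 20 CPM or more in a stage mean and with no overlap between the groups' libraries. Also named were genes of at least 50 CPM with the largest fold between types or clusters, the label markers, sex-linked genes and list members. Predicted, ribosomal protein, mitochondrial, globin and sex-linked genes were left out of the choice by change or fold. Positions are from GENCODE M21. Depth was 69671203 to 130007435 UMIs per E10.5 library. Doublets were ranked with Scrublet (scanpy 1.11.5), since the table holds no doublet score; it called 0.0393% to 0.436% of cells, so only ranks were used. XX and XY libraries of a date deviated together (correlations 0.280 and 0.358). The cell table has 28 columns, of which 22 were not used. Some list members are counted but not reported by name here.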

Additional observations from a re-analysis of the deposited data

Results flagged for a closer look

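A library stood apart from the other 3 of its stage in 15 of 154 groups of 4 libraries, on the TMM-scaled CPM of a gene in MM; chance alone gives about 5% of groups (1 in 20), and genes of 1 library are not independent. XY replicate 1 was the E10.5 library apart for Egr1 (89.1 against 17.9 to 21.6), Nr4a1 (48.7 against 6.01 to 8.25) and Dcn (41.5 against 21.5 to 24.3). In log CPM over all tested genes, its MM sum correlated with the E11.5 sums at 0.960 to 0.964. The other E10.5 libraries did so at 0.947 to 0.960. With those E10.5 libraries it correlated at 0.980 to 0.982, the lowest within the stage. The cause was not tested. XX replicate 1 was apart at E10.5 for Osr1 (54.1 against 42.2 to 43.6), Shisa3 (120 against 153 to 156) and Tbx3os1 (1.67 against 4.25 to 4.54), and XX replicate 2 for Cxcl12 (569 against 610 to 616). At E11.5 XY replicate 2 was apart for Ebf1 (82.1 against 70.1 to 70.4), Nr4a1 (154 against 87.2 to 97.4) and Osr1 (35.8 against 28.0 to 29.1). XX replicate 1 was apart for Fut9 (1.35 against 0.8286 to 0.9030) and Map2 (6.14 against 4.03 to 4.31). XX replicate 2 was apart for Egr1 (169 against 246 to 258) and Hoxb9 (3.12 against 5.28 to 5.63), and XY replicate 1 for Tagln (89.0 against 115.4 to 118.4).

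Genes named in the comparisons with CE and MT had to be called in the block fit, so a difference for each of them is part of the rule. The log2 change in MM minus that in CE was 3.69 for Actc1, 3.53 for Calb1, 3.16 for Cd55, 3.07 for Nrg1, 2.91 for Map2 and 2.48 for Mef2c. It was -4.43 for Gata2, -3.55 for Tbx3os1, -3.50 for Igfbp3, -3.42 for Alx1, -3.02 for Mgam and -2.95 for Tbx3. Against MT it was 4.78 for Trh, 4.65 for Dao, 4.03 for Vil1, 3.87 for B3gat2, 3.87 for Tinag and 3.79 for Fut9. These genes were low in MM at both stages and reached the 20 CPM of the naming rule only in MT at E11.5. On the other side it was -4.17 for Col14a1, -3.73 for Mgp, -3.07 for Itga8, -2.51 for Hoxc10, -2.46 for Ntrk2 and -2.36 for Sorbs2.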

How the results depend on the processing

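The stage count of 5985 genes was 3639 without cells carrying UMIs of other types and 4423 to 6853 under the other settings, leave-one-out fits included. Lhx9 turned to -0.31 without cells carrying UMIs of other types. Of 232 called genes described or listed, 5 lost their call with DESeq2, 9 with equal numbers of cells, 5 without cells carrying muscle or sclerotome markers, 31 with library totals, 46 with the XX and XY sums of a date added together, 50 without cells carrying UMIs of other types and 27 to 47 on leaving out a library. Not all 232 were tested with equal numbers of cells or without cells carrying UMIs of other types. Nr4a1 lost its call with dates summed (adjusted p = 0.0676) and without E10.5 XX replicate 1 (0.0562) or XX replicate 2 (0.0610), Crabp1 without cells of other markers (0.0571), and Myog there too (0.168). The sex count of 2 was 10 with DESeq2, 1 with equal numbers of cells, 7 with E10.5 libraries alone and 1 to 5 on leaving out a library. The sex by stage count of 0 was 2 with DESeq2 and 0 to 2 on leaving out a library. Against CE the count of 2735 was 4185 with no fold threshold and 926 with equal numbers of cells, and against MT 4509 became 2181 with equal numbers of cells, where Dao, Vil1, B3gat2 and Sorbs2 lost their calls. The cause of these shifts was not tested. With 3-fold in place of 2-fold the genes higher in MM than in CE fell to 65, lower than in CE to 98 and higher than in MT to 157. The S or G2M difference ran from 20.4 to 24.6 points on leaving out a library, at p = 0.0571, the smallest the exact permutation test can give with 3 against 4, and with dates averaged it was 22.9 points at p = 0.333, the smallest with 2 against 2.

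XX and XY libraries of a replicate number shared a date, so the date was tried as a replicate block: it gave 2 genes by sex and 0 for sex by stage, with no count moved. No date holds both stages, so for the stage the libraries of a date were summed instead (4423 genes). The comparisons with CE and MT had the library as their block. Doublet ranks, library totals, muscle and sclerotome cells, the date block for sex by stage, date averages and phases called anew without thinning were chosen after seeing the data, the planned doublet score not being among the columns used. Depth limits genes of few UMIs, and 4 libraries a stage with 2 a sex limit the rest.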

Other observations

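Isl1 and Arg1, both named for their higher level at E10.5, were carried by different shares of the MM. The cells below were picked by those genes after the values had been seen, and the levels are summed over the cells of all 4 libraries, with no test. At least 3 UMIs of Isl1 were found in 560 cells (6.97%, 6.75%, 8.62% and 4.11% of the MM of the libraries), of which 438 lay in cluster 10, and in 28 cells at E11.5. In these cells Acta2 was at 691 CPM against 183 in the rest of the MM, Tagln at 461 against 132, and Hlx and Hand1, factors of visceral mesoderm, at 103 against 6.94 and at 49.4 against 1.68. Tnc was at 76.1 against 11.7, whereas Wt1 was lower, at 46.7 against 101. Of the 560 cells 39 were among the highest 5% of doublet scores.

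At least 3 UMIs of Arg1 were found in 930 cells, or 18.0%, 7.80%, 5.92% and 10.54% of the MM of the libraries, split over clusters 0 (515 cells) and 10 (415), and in 13 cells at E11.5. They held more of 3 Hox genes of group 10: Hoxc10 was at 178 CPM against 50.6 in the rest, Hoxa10 at 45.9 against 12.4 and Hoxd10 at 26.9 against 7.32. Acta2 was at 44.8 against 236 in them and Osr1 at 58.7 against 39.9. Acta2 was thus high in the cells with Isl1 and low in those with Arg1, and both sets occurred in all 4 libraries. The cells were deeper, with a median of 27079 UMIs, and 57 of them were among the highest 5% of doublet scores.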
